A study of Mus musculus with 6 samples.

Results

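The cytosolic and mitochondrial heat shock genes examined here were 10 genes chosen by symbol: the transcription factor gene Hsf1, the cytosolic chaperone genes Hsp90aa1, Hsp90ab1, Hspa1a, Hspa1b and Hspa8, the co-chaperone genes Hsph1 and Dnajb1, and the mitochondrial chaperonin genes Hspd1 and Hspe1. Of the 10, 9 had a row among the 17217 rows of the deposited table, Hspa1a had none, and 8 of the 9 reached a mean of 1 TPM (a transcript abundance scaled by gene length and depth) and were tested. RNA came from bone marrow-derived macrophages, which are marrow cells grown into macrophages, in 3 libraries labelled Knockout (genotype KO, CD74-/-, batch 2) and 3 labelled Control (genotype Con, CD74+/+, batch 1). Cells of both groups came from 8-week-old mice, grew with the macrophage growth factor M-CSF at 30 ng/mL, and were kept for 24 h in 100 ng/mL LPS, a bacterial lipopolysaccharide. Because the protocol of all 6 libraries mentions marrow of wild-type mice only, titles and genotype labels decided the groups. How the knockout was made is not given in the sources used here. No untreated cells were analysed here, so every value describes LPS-treated cells. Whether the replicates were separate animals or cultures is not stated, and p-values then measure the spread between these libraries alone, which may be technical. Batch and genotype coincide and cannot be told apart in any result.

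Heat shock proteins are molecular chaperones that bind unfolded or partly folded proteins and release them, mostly with the energy of ATP. In the cytosol, J-domain proteins such as the product of Dnajb1 hand clients to HSP70, exchange factors such as the product of Hsph1 reset HSP70, and HSP90 completes the folding of kinases and receptors. In mitochondria, HSP60 and its lid HSP10 fold imported proteins. HSF1 drives the inducible genes of the family when unfolded proteins accumulate, by binding heat shock elements, which are alternating runs of the letters GAA and TTC in promoters. In macrophages, HSP90 clients include kinases of Toll-like receptor signalling, and Hspa8 and Hsp90ab1 are the constitutive partners of the inducible HSP70 and HSP90 genes.

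Promoter stretches of 5 members are shown because the heat shock element is the letter pattern that joins the family and because Hspa1a and Hspa1b are near copies. They come from RefSeq on GRCm38.p6, the genome before the GRCm39 named in the submitters' processing notes. In lower case with capitals, they run 5′ to 3′ on the gene's strand, and capitals mark each match to TTCNNGAA or GAANNTTC. The stretches were chr1:55088053-55088082 (plus strand) for Hspe1, the same bases on the minus strand for Hspd1, chr17:34972157-34972276 (minus) for Hspa1a, chr17:34959239-34959358 (minus) for Hspa1b and chr5:149636351-149636380 (minus) for Hsph1.
Hspe1: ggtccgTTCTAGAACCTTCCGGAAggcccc
Hspd1: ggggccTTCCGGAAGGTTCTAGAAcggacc
Hspa1a: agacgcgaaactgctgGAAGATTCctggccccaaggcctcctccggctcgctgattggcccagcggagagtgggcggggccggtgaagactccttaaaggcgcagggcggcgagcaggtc
Hspa1b: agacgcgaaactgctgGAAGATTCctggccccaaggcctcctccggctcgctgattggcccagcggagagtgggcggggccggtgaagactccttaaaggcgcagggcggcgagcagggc
Hsph1: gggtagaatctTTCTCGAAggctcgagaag

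Hspd1 and Hspe1 lie head to head, and 1 run of alternating units lies upstream of both, from -89 to -72 counted from the Hspe1 start and from -144 to -127 counted from the second listed Hspd1 start. A run of 3 units (TTCNNGAA and GAANNTTC overlapping by their shared unit, on either strand) was searched in the 250 upstream bases. It occurred in Hspd1 and Hspe1, 2 of the 6 members with a promoter entry. Both matches are the same bases on opposite strands, so they are 1 occurrence. Among all RefSeq genes searched, 139 of 27025 had such a run (0.514%). A pattern of 2 units (TTCNNGAA or GAANNTTC, each its own reverse complement) occurred in 5 of the 6 members, against 14.5% of the genes. Dnajb1 was the member without it. The matches of Hspd1 and Hspe1 are again the same bases. Those of Hspa1a and Hspa1b lie at the same position (-104 to -97) in near copies. The count of 5 therefore overstates the number of separate occurrences. In their 250 upstream bases Hspa1a and Hspa1b had 247 identical positions, with 1 difference inside the stretches shown. These matches describe letters, not binding, and Hsf1, Hsp90aa1, Hsp90ab1 and Hspa8 had no promoter entry.

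Depth was 36445462 to 59236599 reads a library, recovered from the steps of the TPM values, and all 9 members with a row were whole reads in all 6 libraries at 1 gene length. Cd74 itself averaged 64.4 ± 1.11 TPM in Knockout and 607 ± 22.2 TPM in Control libraries (SD, n = 3 each), although its row is not whole reads at any single length. Of 24 macrophage markers 18 had a row, led by Lyz2, Cd14 and Ctsd, and of the 17 tested 6 rose and 2 fell. By the same test, described below, 18.5% of all tested rows were called higher and 10.1% lower. C1qa, C1qb, C1qc, Maf, Marco and Mertk had no row, and Mrc1 stayed below 1 TPM. Markers with a row summed to 19453 to 20420 TPM in Knockout and 16293 to 16559 TPM in Control libraries, and neutrophil markers to 23.8 to 29.4 TPM in Knockout and 17.6 to 18.1 TPM in Control libraries. The 1 mast cell marker with a row, Hdc, stood at 4.38 to 9.03 TPM in Knockout and 21.9 to 31.2 TPM in Control libraries. T cell, B cell and dendritic cell sums were at most 13.9 TPM, and erythroid and stromal sums at most 2.01 TPM. In bulk RNA, fewer cells of a type and less RNA per cell cannot be told apart, and the part of these marker shifts in the results below was not tested.

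Most of the heat shock genes were higher in the Knockout libraries. Of the 8 tested members, 7 rose (limma on log2(TPM + 1), Benjamini-Hochberg adjusted p under 0.05 over all 13034 tested rows), where 18.5% of all tested rows were called higher, and 0 fell, where 10.1% were called lower. The median log2 fold change was 0.30 over the 8 members and 0.04 over all tested rows. For the 7 that rose, every Knockout library lay above every Control library, as in 30.2% of tested rows, and for 0 members was every Knockout library below, as in 19.8%. The rises were modest, between 1.18-fold and 1.73-fold as ratios of mean TPM, with Hspa8 the largest, and the inducible HSP90 gene Hsp90aa1 was not called. The members together took 0.617%, 0.626% and 0.760% of the listed TPM in Knockout replicates 1 to 3, and 0.485%, 0.555% and 0.543% in Control replicates 1 to 3. The number called depends on the processing, as 2 members, Hspa8 and Dnajb1, were called under all 15 alternatives. By that measure 8.23% of tested rows were higher.

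**Figure D1:**
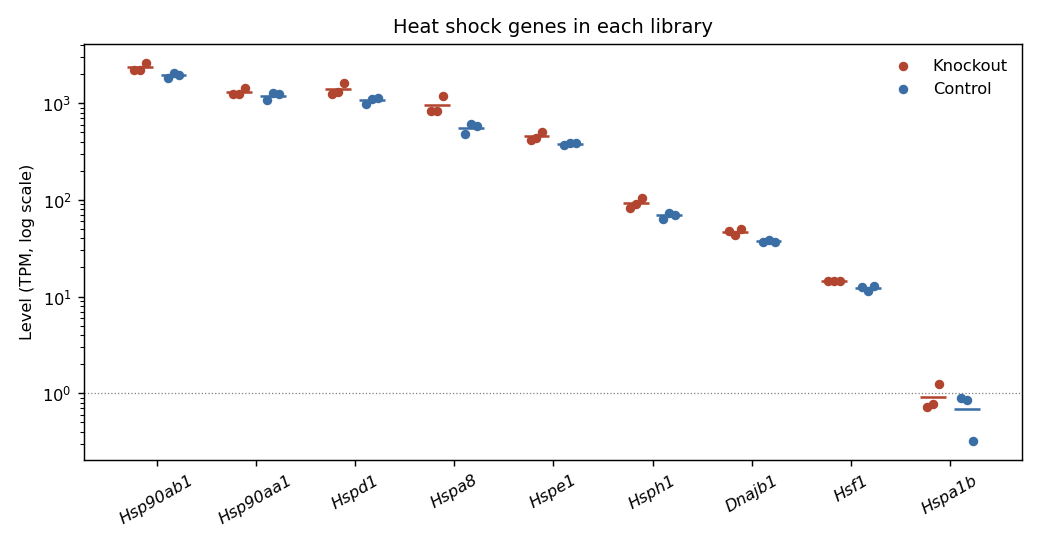
Level of each heat shock gene with a row (TPM, log scale) in the 3 Knockout libraries (red, left) and the 3 Control libraries (blue, right), with a line at each mean. Hsp90ab1 was the highest at 2356 TPM on average in Knockout and 1942 TPM in Control libraries. Hspa1b lay under the dotted line at 1 TPM in every library except Knockout replicate 3 (1.252 TPM).

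Levels spanned more than 3 orders of magnitude on the TPM scale. In Knockout libraries the order was Hsp90ab1, Hspd1, Hsp90aa1, Hspa8, Hspe1, Hsph1, Dnajb1, Hsf1 and Hspa1b. Control libraries had the same order except that Hsp90aa1 stood above Hspd1. In both groups the ranges of Hspd1 and Hsp90aa1 overlapped, so their order is within the spread between libraries, whereas each other pair of neighbours was separate.

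Hsf1, the transcription factor gene of the response, stood at 14.4 TPM in each of the 3 Knockout libraries, against 12.5, 11.4 and 12.8 TPM in Control replicates 1 to 3. The groups did not overlap, and the Knockout values were almost identical (14.40 to 14.42 TPM). Limma gave a log2 fold change of 0.22 (SE 0.07, adjusted p = 0.0433). This call was lost without any 1 of the 6 libraries (adjusted p = 0.0658 to 0.126), under median-of-ratios scaling (0.0859) and upper-quartile scaling (0.102), with a replicate block (0.0691) and with no filter (0.0574). Its paralogue Hsf2, chosen after its values were seen, was not called, at 13.4 ± 0.813 TPM in Knockout and 14.3 ± 0.856 TPM in Control libraries (SD, n = 3 each).

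Hspa8, which encodes HSC70, the constitutive cytosolic HSP70, changed the most. It stood at 838, 841 and 1200.4 TPM in Knockout replicates 1 to 3, against 483, 604 and 581 TPM in Control replicates 1 to 3. All Knockout libraries were above all Control libraries, and Knockout replicate 3 was well above the other two. Knockout libraries averaged 960 ± 208 TPM and Control libraries 556 ± 64.1 TPM (SD, n = 3 each), a ratio of 1.73. On the log2 scale this was 0.77 (SE 0.15, 95% interval 0.42 to 1.13, limma adjusted p = 0.0119), at rank 254 of the 13034 tested rows. Without Knockout replicate 3 it was 0.60 (adjusted p = 0.00717), and Hspa8 was called without each other library in turn as well (adjusted p up to 0.0440).

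Hspa8 shares sequence with processed pseudogenes, which are copies of its spliced transcript elsewhere in the genome. Of the 100-base windows of its GENCODE M21 transcripts, 28.5% also occurred in transcripts of other genes and 26.3% in Gm15459, a processed pseudogene. The Gm15459 row held 588, 603 and 853 TPM in Knockout replicates 1 to 3 and 342, 433 and 414 TPM in Control replicates 1 to 3. Its reads made up between 31.7% and 32.4% of the Hspa8 reads in each of the 6 libraries, so both rows differed between the groups by nearly the same factor (log2 fold change of Gm15459 0.77). Limma-voom on recovered reads gave a log2 fold change of 0.744 for Hspa8 alone (adjusted p = 0.00786). With the Gm15459 reads added it gave 0.742 (adjusted p = 0.00823), a check chosen after the data were seen. As the share was nearly constant, the addition could hardly move the fold change. Read length was not given in the sources used here, so the window length is arbitrary.

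Inducible HSP70, whose genes heat shock strongly induces, was read from Hspa1b alone and lay near 1 TPM. Hspa1b stood at 0.717, 0.773 and 1.252 TPM in Knockout replicates 1 to 3, from 36, 34 and 59 reads, against 0.882, 0.845 and 0.319 TPM in Control replicates 1 to 3, from 28, 38 and 14 reads. The groups overlapped. Counting error alone gives 95% exact Poisson intervals of 0.953 to 1.61 TPM for the highest library, Knockout replicate 3, and 0.175 to 0.536 TPM for the lowest, Control replicate 3. An exact two-sided permutation test gave p = 0.6 for the difference of mean log2 values (0.51, from 20 splits, where 0.1 is the smallest p possible), and Hspa1b lay under the filter of the fit across genes. Without that filter its log2 fold change was 0.19 (95% interval -0.24 to 0.63, limma adjusted p = 0.506). Of the 100-base windows of Hspa1b transcripts 49.9% also occur in Hspa1a, and how such reads were counted is not given in the sources used here, so the split of reads between them is uncertain.

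Hspa1b amounted to a tiny part of Hspa8, with TPM ratios of 8.55e-04, 9.19e-04 and 0.00104 in Knockout replicates 1 to 3 and 0.00182, 0.00140 and 5.49e-04 in Control replicates 1 to 3. The groups overlapped (exact two-sided permutation p = 0.7), and the difference of mean log2 ratios, -0.26, turned to 0.09 without Control replicate 1 and to -0.77 without Control replicate 3, with exact p = 0.1 to 0.8 over the left-out libraries.

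Hsph1 encodes HSP110, an exchange factor that releases ADP from HSP70. It stood at 81.9, 90.0 and 104 TPM in Knockout replicates 1 to 3, against 63.8, 74.1 and 70.4 TPM in Control replicates 1 to 3. The groups did not overlap, with Knockout replicate 3 the highest, and limma gave a log2 fold change of 0.40 (SE 0.10, adjusted p = 0.0216). The call was lost without Control replicate 1 (adjusted p = 0.0721), Control replicate 3 (0.0626) or Knockout replicate 2 (0.0533).

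Dnajb1 encodes the HSP40 that passes clients to cytosolic HSP70. It stood at 47.6, 43.4 and 49.95 TPM in Knockout replicates 1 to 3, against 36.9, 38.0 and 36.4 TPM in Control replicates 1 to 3. Control libraries were close to each other, and all Knockout libraries were higher. Limma gave a log2 fold change of 0.33 (SE 0.06, adjusted p = 0.0103), with adjusted p = 0.0139 to 0.0427 when 1 library was left out.

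Of the HSP90 pair, the constitutive gene passed the test and the inducible gene did not. Hsp90ab1, the constitutive gene and the most abundant member, stood at 2226, 2227 and 2615 TPM in Knockout replicates 1 to 3, against 1821, 2058 and 1947 TPM in Control replicates 1 to 3. Its groups did not overlap, and limma put its log2 fold change at 0.28 (SE 0.08, adjusted p = 0.0373). That call was lost without Control replicate 1 (adjusted p = 0.112), 2 (0.0508) or 3 (0.0974) or Knockout replicate 2 (0.0556), under median-of-ratios (0.0709) and upper-quartile scaling (0.0515), with no filter (0.0505) and without trend or robust settings (0.0671).

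Hsp90aa1, the inducible gene, stood at 1242, 1256 and 1440 TPM in Knockout replicates 1 to 3, against 1074, 1267 and 1259 TPM in Control replicates 1 to 3. Its groups overlapped, and its log2 fold change of 0.13 was not called (95% interval -0.07 to 0.33, limma adjusted p = 0.289), nor was it under any of the 15 alternatives. The interval does not exclude a rise as large as that of Hsp90ab1. Of its 100-base windows 38.0% occur in other genes' transcripts, although the reads of Gm12346, the copy sharing most, were at most 0.545% of the Hsp90aa1 reads.

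The ratio of Hsp90aa1 to Hsp90ab1, which no scaling of a library can move, was 0.558, 0.564 and 0.551 in Knockout replicates 1 to 3, against 0.590, 0.616 and 0.647 in Control replicates 1 to 3. Every Knockout ratio was below every Control ratio, and the mean log2 difference was -0.15 (exact two-sided permutation p = 0.1, the smallest that 3 libraries against 3 allow). With 1 library left out it was between -0.18 and -0.11.

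The mitochondrial chaperonin genes rose together. Hspd1, which encodes HSP60, stood at 1252, 1308 and 1613 TPM in Knockout replicates 1 to 3, against 983, 1110 and 1126 TPM in Control replicates 1 to 3, without overlap. Limma put its log2 fold change at 0.37 (SE 0.10, adjusted p = 0.0355). The call was lost without Control replicate 1 (adjusted p = 0.111), 2 (0.0707) or 3 (0.0702) or Knockout replicate 2 (0.0584), under median-of-ratios scaling (0.0604) and without trend or robust settings (0.0628).

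Hspe1, which encodes the HSP10 lid of the HSP60 barrel, stood at 420, 434 and 507 TPM in Knockout replicates 1 to 3, against 372, 385 and 388 TPM in Control replicates 1 to 3. Its groups did not overlap either, and limma put its log2 fold change at 0.24 (SE 0.07, adjusted p = 0.0449), the closest to the threshold among the calls. It was lost without Control replicate 1 (adjusted p = 0.125), 2 (0.0987) or 3 (0.1) or Knockout replicate 2 (0.0726), under median-of-ratios (0.0961) and upper-quartile scaling (0.0694), with no filter (0.0607) and without trend or robust settings (0.0779). Near their starts the 2 genes overlap on opposite strands (13 windows of 100 bases in common), and whether counting used strand is not given.

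The Hspe1 to Hspd1 ratio was 0.336, 0.332 and 0.314 in Knockout replicates 1 to 3, against 0.378, 0.347 and 0.345 in Control replicates 1 to 3. Ratios of the Knockout libraries were all below those of the Control libraries (mean log2 difference -0.12, exact two-sided permutation p = 0.1, again the smallest possible). Without Control replicate 1 the difference was -0.08, and between medians it was -0.06.

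**Figure D2:**
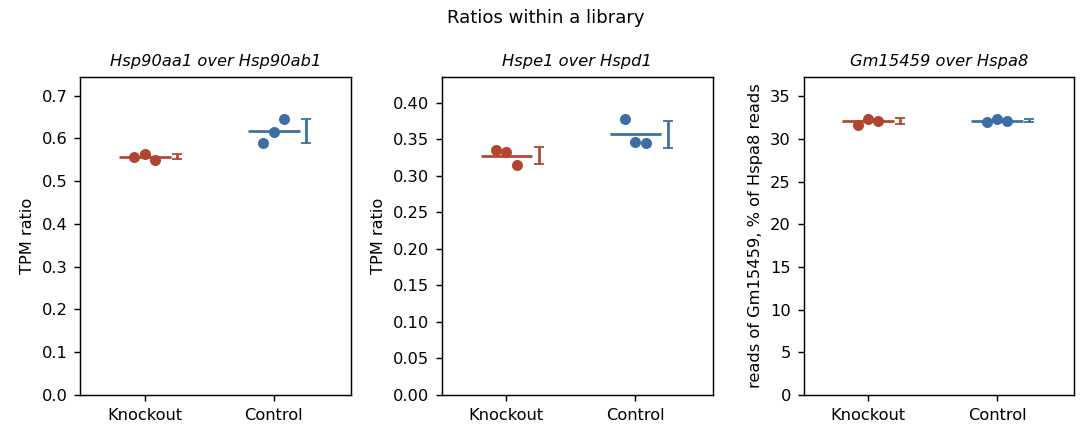
Ratios within each library, as points for the 3 Knockout (left) and 3 Control libraries (right) with a line at the mean and bars of 1 SD. Hsp90aa1 over Hsp90ab1 and Hspe1 over Hspd1 (TPM ratios) were lower in every Knockout library, and the reads of the pseudogene Gm15459 stayed near 32% of the Hspa8 reads in both groups.

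Most members were highest and lowest in the same libraries. Knockout replicate 3 was the highest of the 6 libraries for 8 of the 9 members with a row, all but Hsf1. Of all tested rows 31.1% were highest in that library, and of the rows called higher 75.1%. Control replicate 1, the library with the fewest reads, was the lowest for 6 of the 9. Of all tested rows 30.2% were lowest there, and of the rows called higher 62.5%. Among the Knockout libraries the coefficient of variation was 21.7% for Hspa8, 14.0% for Hspd1 and 0.0696% for Hsf1. Without Knockout replicate 3 6 members were called, as without Knockout replicate 1. Without Control replicate 1, Control replicate 3 or Knockout replicate 2 there were 2 calls, Hspa8 and Dnajb1, and without Control replicate 2 there were 3.

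**Figure D3:**
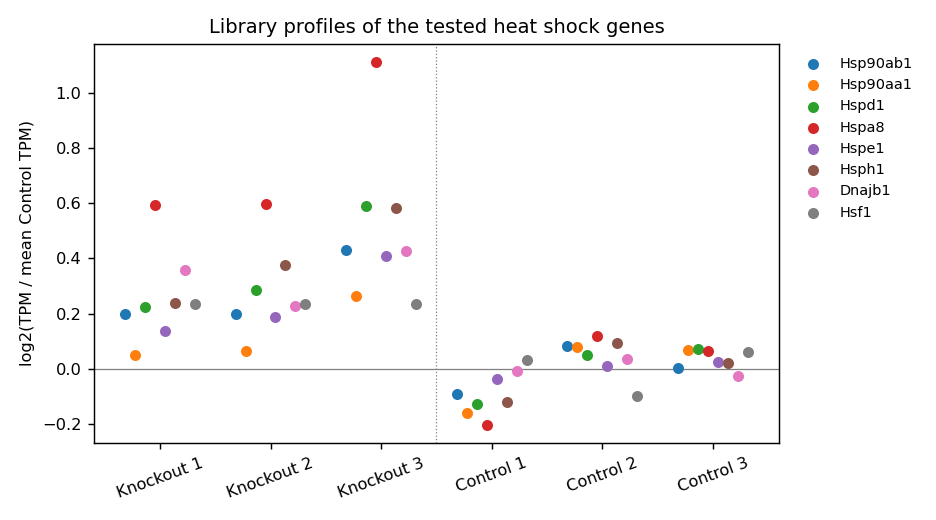
TPM of each tested heat shock gene relative to its mean over the Control libraries (log2 scale, vertical axis) in each library, Knockout on the left and Control on the right. Hspa8 is the top point in all 3 Knockout libraries, and the points of Knockout replicate 3 lie higher than those of the other Knockout libraries except for Hsf1.

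**Figure D4:**
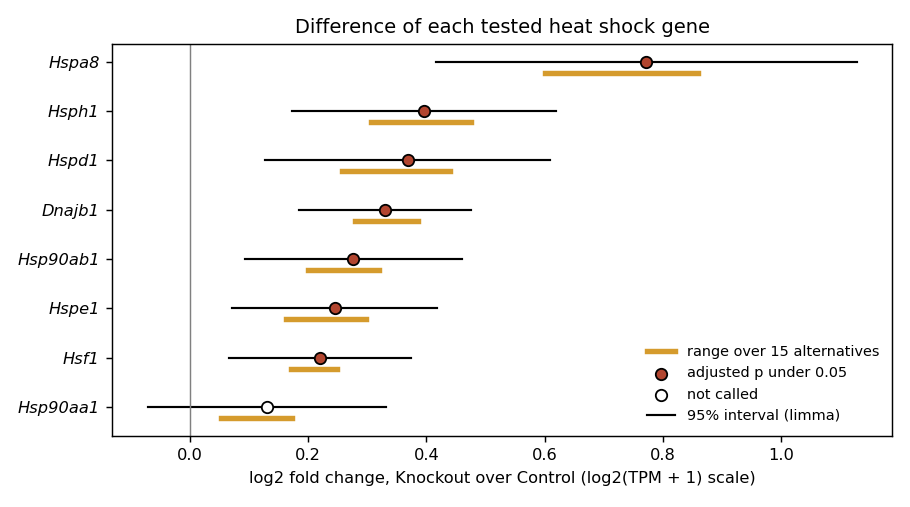
Log2 fold change of each tested heat shock gene, Knockout over Control, with its 95% limma interval (black line) and the range over 15 alternatives (orange bar). Filled points passed an adjusted p of 0.05. All 8 estimates are above 0, and Hsp90aa1 alone has an interval that reaches below 0.

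The profiles closest to the mean z-score profile of Hsp90aa1, Hsph1 and Dnajb1, the cytosolic inducible members that could be tested, were those of Ddx3x, Hnrnph1, Idi1, Plp2 and Ddx46 (Pearson r 0.9991 to 0.9975 over the 6 libraries, among 8619 rows averaging 10 TPM or more). Closest to the profile of Hspd1 and Hspe1 were Ctbp1, Anapc11, H2az1, Polr3e and Mtx2 (r 0.9994 to 0.9973). With 6 libraries and 8619 rows, such values describe likeness only.

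Beyond the members, 120 other chaperone genes, co-chaperones and regulators in 8 lists were read from the same fit, of which 102 were tested. Among them 23 rose, 9 fell and 70 were not called, with a median log2 fold change of 0.08. That is 23 of 102 against 18.5% of all tested rows called higher, and 9 of 102 against 10.1% called lower. The balance depends on scaling, with 9 higher and 13 lower after median-of-ratios scaling and 11 higher and 12 lower after upper-quartile scaling. With 1 library left out, 9 to 29 were called, the fewest without Control replicate 1 (9), Control replicate 3 (10) and Knockout replicate 2 (11), with 17 called without Control replicate 2. Of the 32 called, 8 were called under all 15 alternatives, among them Bag2, Fkbp4, Ptges3 and Tomm34, which were higher, and Grpel2, Lonp1 and Ubb, which were lower.

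**Figure D5:**
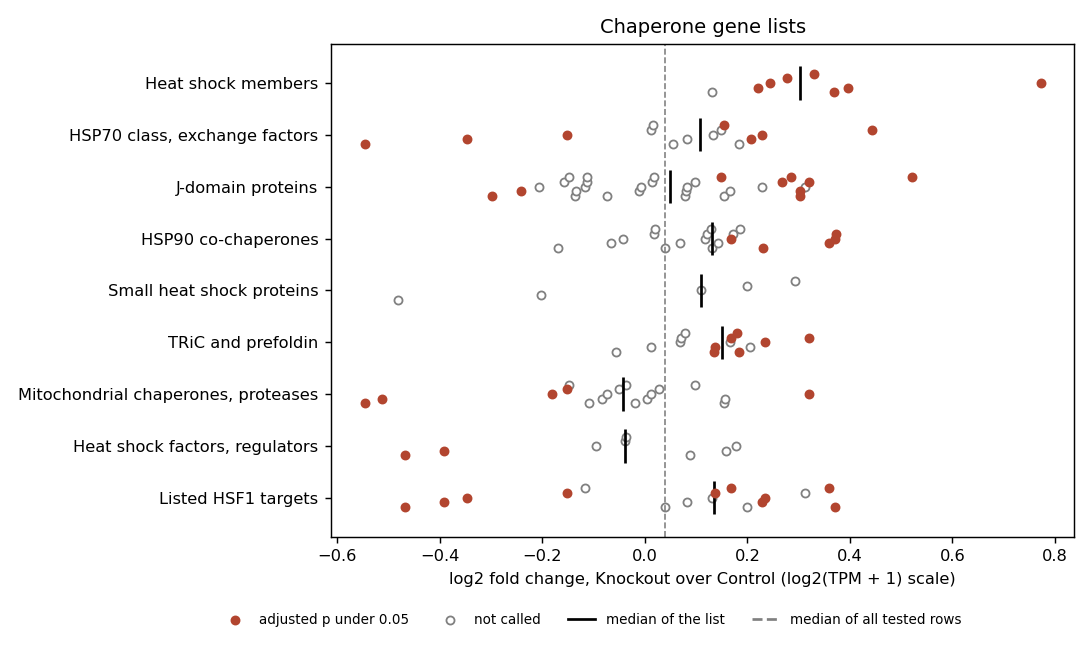
Log2 fold change (Knockout over Control) of each tested gene in the heat shock member list and the 8 other chaperone lists, filled where the adjusted p was under 0.05, with the median of each list (black bar) and of all tested rows (dashed line, 0.04). The member list has the highest median (0.30), and the mitochondrial list and the regulator list lie below the dashed line.

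Of 19 tested HSP90 co-chaperones, 5 rose, 0 fell and 14 were not called, beside 18.5% of all tested rows called higher and 10.1% called lower. By limma-voom 4 were higher and 1 lower. Tomm34, which links HSP70 and HSP90 in the import of mitochondrial proteins, stood at 43.1 ± 1.74 TPM in Knockout and 33.1 ± 1.57 TPM in Control libraries (SD, n = 3 each; log2 fold change 0.37, limma adjusted p = 0.00570). Ptges3, which encodes the HSP90 co-chaperone p23, stood at 480 ± 32.3 TPM in Knockout and 372 ± 33.8 TPM in Control libraries (SD, n = 3 each; log2 fold change 0.37, limma adjusted p = 0.0154). With 1 library left out, 3 to 5 of the list were called higher.

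In the cytosolic chaperonin TRiC and its partner prefoldin, 7 of 14 tested genes rose and 0 fell. Over all tested rows, 18.5% were called higher and 10.1% lower. Cct6a stood at 422 ± 33.7 TPM in Knockout and 338 ± 21.5 TPM in Control libraries (SD, n = 3 each; log2 fold change 0.32, limma adjusted p = 0.0183), and Tcp1 had a log2 fold change of 0.23 (limma adjusted p = 0.0308). These counts changed with the processing. After median-of-ratios scaling 1 of the list was called, and after upper-quartile scaling 2. With no filter or by limma-voom 3 were called, and without trend or robust settings 1. Leaving out Control replicate 1 or 3 gave 0 calls, Knockout replicate 2 gave 1 and Control replicate 2 gave 2.

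Among HSP70-class proteins and exchange factors, 4 of 14 tested genes rose and 3 fell. Over all tested rows, 18.5% were called higher and 10.1% lower. Bag2, whose product inhibits the ubiquitin ligase CHIP, rose to 31.4 ± 3.89 TPM in Knockout, against 22.7 ± 1.27 TPM in Control libraries (SD, n = 3 each; log2 fold change 0.44, limma adjusted p = 0.0134), and Hspa4, an HSP110 relative of Hsph1, had a log2 fold change of 0.23. Hspa4l, another HSP110 relative, fell by 0.35 on the log2 scale. The other falls were the mitochondrial genes Grpel2 and Hspa9, which are counted again in the mitochondrial list below. Left-out libraries changed these counts, to 1 higher and 1 lower without Control replicate 1, Control replicate 3 or Knockout replicate 2, to 2 and 1 without Control replicate 2, and to 2 and 2 without Knockout replicate 1. The calls of Hspa4 and Hspa4l were each lost on leaving out Control replicate 1, 2 or 3 or Knockout replicate 2. Both were also lost without trend or robust settings, and that of Hspa4 under both scalings and with no filter.

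Of 30 tested J-domain genes, 7 rose, 2 fell and 21 were not called, beside 18.5% of all tested rows called higher and 10.1% lower. Dnajc9, which encodes a histone chaperone, rose by 0.52 on the log2 scale and Dnajc19, of the mitochondrial import motor, by 0.32, while Hscb, which serves iron-sulphur cluster assembly, fell by 0.30 and Dnajb12 by 0.24. The rises fell to 2 after median-of-ratios scaling and 3 after upper-quartile scaling, each with 5 falls, and 0 genes rose without Control replicate 1 or 3, 2 without Knockout replicate 2, 3 without Control replicate 2 or Knockout replicate 3, and 4 without Knockout replicate 1. Dnajc9 and Dnajc19 were among the calls lost without Control replicate 1, Control replicate 3, Knockout replicate 2 or Knockout replicate 3. Dnajc19 also lost its call without Control replicate 2, under both scalings, with no filter and without trend or robust settings. Hscb lost its call without Control replicate 1 or Knockout replicate 2, and Dnajb12 without Knockout replicate 2. Dnaja1, a partner of cytosolic HSP70 chosen after its values were seen, had a log2 fold change of 0.31 and was not called (limma adjusted p = 0.0686).

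Of 18 other mitochondrial chaperones and proteases tested, 1 rose (Dnajc19), 4 fell and 13 were not called, with a median log2 fold change of -0.04, beside 18.5% of all tested rows called higher and 10.1% called lower. Lonp1, the matrix protease, stood at 198, 191 and 166 TPM in Knockout replicates 1 to 3, against 282, 256 and 254 TPM in Control replicates 1 to 3 (log2 fold change -0.51, limma adjusted p = 0.00566). Grpel2, an exchange factor of mitochondrial HSP70, stood at 20.6, 20.3 and 18.8 TPM in Knockout replicates 1 to 3, against 29.1, 28.7 and 30.8 TPM in Control replicates 1 to 3 (log2 fold change -0.55, limma adjusted p = 0.00264). For both genes the groups were separate, with Knockout replicate 3 the lowest library.

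Hspa9, mitochondrial HSP70 itself and chosen after its values were seen, was slightly lower. It stood at 728 ± 13.5 TPM in Knockout and 809 ± 18.9 TPM in Control libraries (SD, n = 3 each). The log2 fold change was -0.15 (limma adjusted p = 0.0341). That call was lost with a replicate block and without trend or robust settings. Leaving out Control replicate 1, 2 or 3 or Knockout replicate 1 or 2 also ended it. Trap1, the mitochondrial HSP90, also chosen after its values were seen, had a log2 fold change of 0.00 (95% interval -0.09 to 0.10). Without Control replicate 1, 2 or 3, or Knockout replicate 1 or 2, the mitochondrial list had 2 falls each time.

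Genes listed as HSF1 targets of heat-shocked cells moved both ways, with 6 of 16 tested genes higher, 4 lower and 6 not called. Over all tested rows, 18.5% were called higher and 10.1% lower. Fkbp4, an HSP90 co-chaperone of steroid receptors, stood at 279 ± 25.97 TPM in Knockout and 216 ± 3.05 TPM in Control libraries (SD, n = 3 each; log2 fold change 0.36, limma adjusted p = 0.0107). Ubb, which encodes polyubiquitin, fell to 1079 ± 58.9 TPM in Knockout, against 1415 ± 9.55 TPM in Control libraries (SD, n = 3 each; log2 fold change -0.39, limma adjusted p = 0.00406). Bag3, an HSP70 co-chaperone that heat shock strongly induces and which was chosen after its values were seen, was not called at 44.7 ± 0.979 TPM in Knockout and 42.2 ± 1.17 TPM in Control libraries. The rises numbered 2 after median-of-ratios scaling and 3 after upper-quartile scaling, 2 without Control replicate 1, Control replicate 3 or Knockout replicate 2, and 3 without Control replicate 2. The falls numbered 2 without Control replicate 1, 2 or 3 or Knockout replicate 2.

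Among heat shock factors and their regulators 0 of 8 tested genes rose by limma and 2 fell, Ubb among them. At an unadjusted p under 0.05 1 rose, and by limma-voom 0. Over all tested rows limma called 18.5% higher and 10.1% lower. Of 5 tested small heat shock proteins limma called 0, with 0 higher and 1 lower at an unadjusted p under 0.05 and 1 lower by limma-voom. Hspb1, the main inducible small heat shock protein gene and chosen after its values were seen, was at 1.03 TPM or less in all 6 libraries.

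Chaperones of the endoplasmic reticulum, which answer to another stress pathway, gave 3 rises and 5 falls among 14 tested genes. Their median log2 fold change was -0.17. Over all tested rows, 18.5% were called higher and 10.1% lower. With the 28 rows that are not whole reads left out, 3 rose and 4 fell among 13 tested genes. Dnajb9 fell by 0.49 and Dnajb11 rose by 0.39 on the log2 scale, Canx (calnexin) had a log2 fold change of 0.29 whose call both scalings ended, and Hspa5 (BiP) was listed at 1544 ± 426 TPM in Knockout and 6175 ± 561 TPM in Control libraries (SD, n = 3 each; log2 fold change -2.03, limma adjusted p = 0.00155) in a row that is not whole reads at any single length. The rises numbered 1 under both scalings and without Control replicate 1, Control replicate 3, Knockout replicate 2 or Knockout replicate 3, and the falls ranged from 3 to 8 with 1 library left out, with 3 without Control replicate 3 or Knockout replicate 2 and 8 without Knockout replicate 3. Of 17 tested immediate early genes, which respond within minutes to handling and stress, 1 rose (Fos, 0.79) and 6 fell. The falls were led by Atf3 (-1.03) and Dusp1 (-0.75), and the same shares of all tested rows stand beside these counts.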

How the data were processed

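The submitters deposited 1 table of TPM values for 6 libraries, with no unit in its header, so the unit was read from the values (column sums of 991721 to 998572 and whole-read steps). Per the submitters' processing notes GRCm39 is the build and DESeq2 a tool, without a stated role. The aligner, counter, strand setting and annotation are not given in the sources used here. Values were tested as deposited with limma 3.58.1 in R 4.3.3 (lmFit and robust eBayes with a mean-variance trend) on log2(TPM + 1), which understates changes of low genes. Rows with a mean under 1 TPM were left out, tests were two-sided, and p-values were Benjamini-Hochberg adjusted over all 13034 tested rows.

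Reads were recovered from the TPM steps with GENCODE M21 union exon lengths, used for lengths alone. With a tolerance of 0.02 read, 16508 of 17217 rows (95.9%) were whole at an annotated length, another 681 at a searched length (tolerance 0.003 read) and 28 at none. Limma-voom on these reads called 4075 rows, against 3719 for TPM. The fit and the recovery were tested on simulated data. Promoters were searched in RefSeq (GRCm38.p6).

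The members and lists were chosen with earlier results of these data known. Named genes were all members and, per list, the 2 largest rises and 2 largest falls among called genes, and others are marked. The values of 1 gene that the rule names are not reported here. Alternatives were 2 filters, another pseudocount, no trend, 2 scalings, limma-voom, the removal of the 28 rows, a replicate block and each library left out.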

Additional observations from a re-analysis of the deposited data

How the results depend on the processing

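Direction held for all 8 tested members under all 15 alternatives. Of the members, 7 were called as deposited, 4 with no filter, 4 without trend or robust settings, 3 after median-of-ratios scaling, 4 after upper-quartile scaling, and 2 to 6 with 1 library left out. The cause was not tested. Over all rows 3719 were called, and 1978 to 3250 with 1 library left out. Higher calls were 64.7% of them as deposited, 50.8% after median-of-ratios and 52.3% after upper-quartile scaling. Other chaperone genes numbered 32 called, 19 without trend or robust settings and 9 to 29 with 1 library left out.

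The Hspa1b difference (Hspa1a had no row) was 0.51 between mean log2 values and -0.13 between medians, and 0.04 to 0.77 with 1 library left out. The Hspa1b to Hspa8 difference, -0.26, ranged from -0.772 to 0.0944 with 1 library left out. Neither was called, and 14 to 59 reads a library limit both. The 2 other ratios kept their direction under all their alternatives.

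Replicate numbers showed no clear pairing of the libraries. Over tested rows, deviations of same-numbered libraries correlated at 0.13, -0.08 and 0.03, and 2 of the 3 Knockout libraries correlated best with another number. With 3 libraries in each group such correlations cannot exclude pairing. With a replicate block, 3711 rows, 6 members (without Hsf1) and 27 other chaperone genes were called.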
